A study of Mus musculus with 7 samples.

Results

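In 1256 windows of 500 bp, fragments read on one strand of the genome gave more reporter RNA than fragments read on the other, with the pPGK promoter. They come from a self-transcribing reporter assay on captured DNase hypersensitive sites (CapStarr-seq) in P5424, an immature mouse T cell line. The windows (called sites here) are 1256 of the 14611 bins with enough input reads on each strand. They were chosen by their measured values, as follows. Activity, A, was the log2 ratio of reporter to input reads (pseudocount 1), scaled to the totals of that strand. The strand difference was A of the plus strand minus A of the minus strand. A site had a strand difference of at least 1.5 in size in pPGK, the same sign in the library labelled PMA_I, and an A between -0.5 and 0.5 when the reads of both strands were pooled. Of the sites, 604 were plus over minus and 652 minus over plus.

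The 7 samples are 4 libraries of reporter RNA and 3 plasmid inputs. The reporter RNA was driven by pPGK, which is named for phosphoglycerate kinase, in the libraries pPGK and PMA_I, by SCP1, a synthetic core promoter, and by pR-Ea. Each group held 1 library of the same cell line, so no value has a replicate check and no p-value is given. PMA, an activator of protein kinase C, and ionomycin, a calcium ionophore, stand in the treatment label of all 7 samples; here PMA_I is the stimulated library because its title alone says so. Column 7 of each file was read as reporter and column 8 as input, which no label states. The pPGK files share 1 input: column 8 was equal at each of the 5646980 lines they have in common. Their strand differences are therefore not independent of each other. The mapping quality of the lines differed between the files, with 57.3% of input reads at 30 or more in pPGK and 70.0% in PMA_I, so the input reads used at a site can differ.

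Enhancers are classically defined as sequences that act in either orientation. Promoters, splice sites and polyadenylation signals act in 1 direction along the transcript. In this assay the cloned fragment is itself transcribed, so what it does as DNA and what it does as RNA both enter the count. No label says from which end of the plasmid each library was read, so whether the strand of a read is the orientation of the insert is not known, and it may not mean the same in all files. The 2 pPGK libraries differed here from the other promoters. Across bins, A of the plus and minus strands had a Spearman rho of 0.15 in pPGK (14611 bins) and 0.43 in PMA_I, against 0.88 in SCP1 (13809 bins) and 0.94 in pR-Ea (12523 bins). Strands of a bin share capture and base composition, and bins are not replicates.

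The used reads numbered 44453020 reporter and 16111754 input for pPGK, 58193214 and 17912152 for PMA_I, 49686725 and 41340637 for SCP1, and 48072030 and 17707449 for pR-Ea. The strands of the pPGK file were not alike in their 5' ends. On the minus strand 31.6% of its reporter reads lay at a 5' end with no input read, against 4.20% on the plus strand, and in PMA_I these shares were 6.42% and 3.57%. In SCP1 they were 33.1% and 5.54%, and in pR-Ea 13.5% and 12.2%. Of 187747 such minus ends with at least 10 reads in pPGK, 32.2% had their nearest input end 24 to 28 bp lower, most often 26 bp, against 0.649% on the plus strand. The cause was not tested. Moving all minus-strand pPGK fragments at ends without input by 26 bp left 598 sites plus over minus and 659 minus over plus, with 1198 of the 1256 kept. Such a move changes the bin only of fragments near a bin edge, so it could alter few sites. Leaving out all reporter reads at ends without input, on both strands of both pPGK files, gave 775 and 567, with 965 kept. Both settings were chosen after the data were seen.

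A strand difference of this size was common with pPGK. Over all 14611 bins it was at least 1.5 in 7.46% and at most -1.5 in 7.73%, and 15.1% of bins reached that size in pPGK with the same sign in PMA_I. The window on pooled activity kept 1256 of these 2207. Among the sites the median strand difference, signed towards the higher strand, was 1.87 (quartiles 1.67 and 2.21) in pPGK. It was 1.35 (quartiles 1.05 and 1.70) in PMA_I, where 465 sites (37.0%) were also past 1.5, against 8.06% of all bins. These values chose the sites and are a description. The standard error over 5' end positions, which takes positions as independent and covers neither cultures nor PCR copies, had a median of 0.37 in pPGK and 0.29 in PMA_I.

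**Figure D1:**
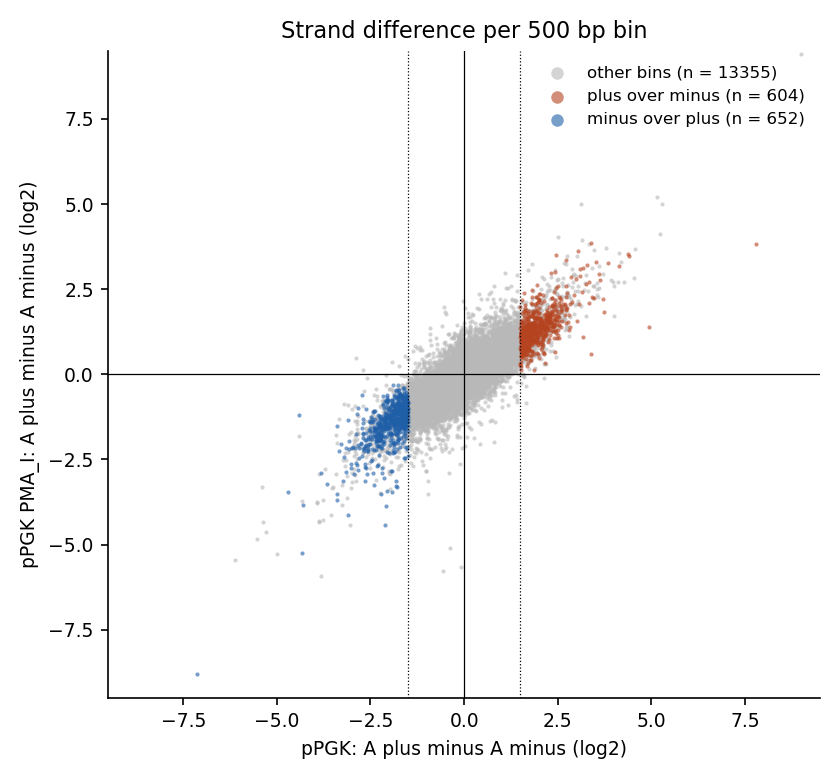
Strand difference (A of the plus strand minus A of the minus strand, log2) of each 500 bp bin in pPGK (x axis) and PMA_I (y axis), with 604 sites plus over minus in red, 652 minus over plus in blue and the other bins in grey. Dotted lines mark 1.5 and -1.5; grey points beyond them are bins whose pooled activity or sign kept them out.

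The higher strand held a median of 698.5 reporter and 182 input reads, and the lower strand 164.5 reporter and 161 input reads. As log2 ratios of the higher to the lower strand these had medians of 2.11 for reporter (range -1.23 to 7.78) and 0.15 for input (quartiles -0.42 and 0.72, range -2.98 to 4.26). At the lowest of these values the higher strand had fewer reporter reads than the other, so input enters the difference at single sites. The other inputs were more even between strands, with medians of 0.05 (quartiles -0.12 and 0.32) for SCP1 and 0.08 (quartiles -0.11 and 0.35) for pR-Ea. The lower strand stood further from the average of the bins than the higher one. Median A was 0.63 on the higher and -1.31 on the lower strand. On the lower strand 967 sites had an A of at most -1, and on the higher strand 140 had an A of at least 1. The window on pooled activity sets a limit to how far the higher strand can rise, so this asymmetry is partly built into the choice. The counts of 967 and 140 come from the values that chose the sites. No share over all bins was taken for them, so they are a description.

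Input reads of the sites lay at a median of 18 positions on the higher and 15 on the lower strand. The leading position held a median of 20.8% of reporter reads on the higher and 22.5% on the lower strand. Without the leading position of each strand, 1249 of 1256 sites kept their sign and 1235 kept a difference of at least 1, in the reads that chose them. Applying the whole rule without that position kept 753 of the 1256, with 9795 bins left to test. When each position was counted once in place of its reads, 1130 of 1256 sites kept their sign in pPGK. The median signed difference was then 0.53 (quartiles 0.26 and 0.85), against 1.87 by reads. Much of the difference thus lay in reads per position, which can include PCR copies. On the thinner strand 544 sites had fewer than 10 input positions. Of the 802 sites with at least 5 positions of 5 or more input reads on each strand, 248 had no overlap between strands, so that every such position of the higher strand had a larger reporter to input ratio than every one of the lower. These are reads that chose the sites, and no share over all bins was taken, so this count is a description. The threshold holds the strand difference above 1.5 at any depth, so its median says nothing of depth. It was 1.91 in the 418 sites of fewest input reads (101 to 260) and 1.86 in the 419 of most (532 to 9246), while the median standard error went from 0.48 to 0.26.

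The leading site with plus over minus, by the smaller of the differences in the pPGK libraries, was at chr9:96470501-96471000 (build mm9, counted from 1). Its plus strand gave 545 reporter reads from 138 input reads, and its minus strand 66 from 195. In PMA_I the reporter reads were 643 on the plus and 94 on the minus strand, from 148 and 217 input reads. A was 0.67 against -2.86 in pPGK, a strand difference of 3.52 (SE 0.38 over positions), and 3.29 (SE 0.31) in PMA_I. The reads of single 5' ends, which are part of the sums that chose the site, show where these totals come from. The deepest plus ends gave 172 reporter reads from 40 input reads and 89 from 31, while the deepest minus ends gave 6 from 43 and 8 from 32.

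The next was at chr19:7276501-7277000, with 786 plus reporter reads from 222 input reads and 32 minus reads from 162. Its strand difference was 4.13 (SE 0.49) in pPGK and 3.18 (SE 0.40) in PMA_I. The deepest plus ends gave 178 reads from 40 and 134 from 39, and the deepest minus ends 3 from 45 and 3 from 19. Here the strand that was low lay far below the average of the bins, at an A of -3.62, while the other was at 0.51. The site at chr5:89150001-89150500 rested on more reads, 5638 from 1287 on the plus and 286 from 515 on the minus strand. It had strand differences of 2.98 (SE 0.14) and 2.79 (SE 0.26). The bin after it was at 2.62 in pPGK and the bin before it at 0.14, so the difference extended to one side. The remaining leaders of this direction were chr11:17386001-17386500 (3.09 and 2.87 in pPGK and PMA_I), chr4:70392001-70392500 (2.85 in each), and chr4:10621001-10621500 (2.72 and 3.37).

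In the other direction the leading site was at chr11:5677501-5678000. Its minus strand gave 2025 reporter reads from 456 input reads and its plus strand 214 from 609. In PMA_I these were 4042 from 767 and 348 from 609. A was 0.84 on the minus and -2.81 on the plus strand, a strand difference of -3.65 (SE 0.23) in pPGK, and -3.22 (SE 0.21) in PMA_I. The deepest minus ends gave 135 reads from 58 and 179 from 48, and the deepest plus ends 32 from 96 and 27 from 75. Input was thus higher on the strand that gave less RNA.

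Second was chr13:8931001-8931500, with 437 minus reads from 146 and 18 plus reads from 59. Its differences of -3.23 (SE 0.76) and -3.15 (SE 0.43) rested on few reads. Without the leading position they were -5.06 and -3.34. The site chr5:77286001-77286500 was at -3.02 (SE 0.30) and -2.75 (SE 0.23), and the bin before it at -3.16. The site chr3:93248001-93248500 held 4848 minus reads from 1607 and 304 plus reads from 617. It was at -2.61 (SE 0.24) and -2.75 (SE 0.46), beside a bin at -2.09. The others were chr4:144550001-144550500 (-2.64 and -3.12), and chr19:56538001-56538500 (-3.03 and -2.62). At the last of these, reads below the mapping quality minimum made up 48.1% of pPGK reporter reads, against a median of 2.20% over the sites and 1.56% over all bins.

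**Figure D2:**
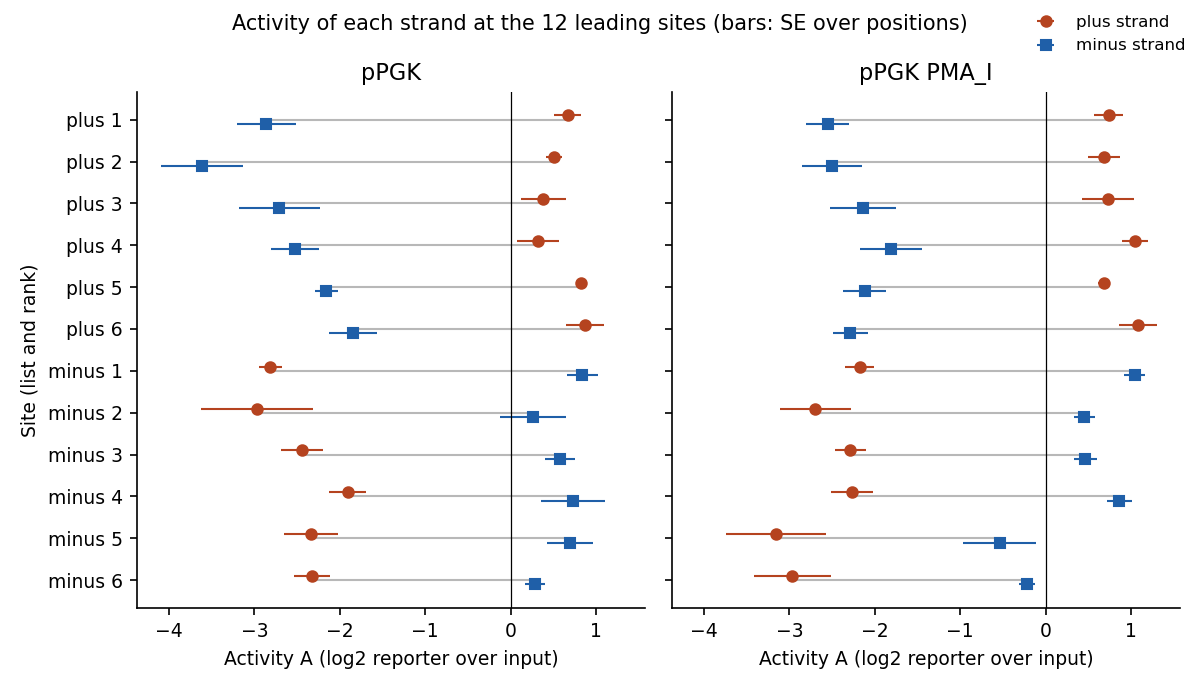
Activity A (log2 reporter over input, scaled; x axis) of the plus strand (red circles) and minus strand (blue squares) at the 6 leading sites of each direction, ranked by the smaller of their differences in pPGK and PMA_I, for pPGK and PMA_I; bars are the SE over positions and grey lines join the strands. At the first site, A was 0.67 on the plus and -2.86 on the minus strand in pPGK.

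**Figure D3:**
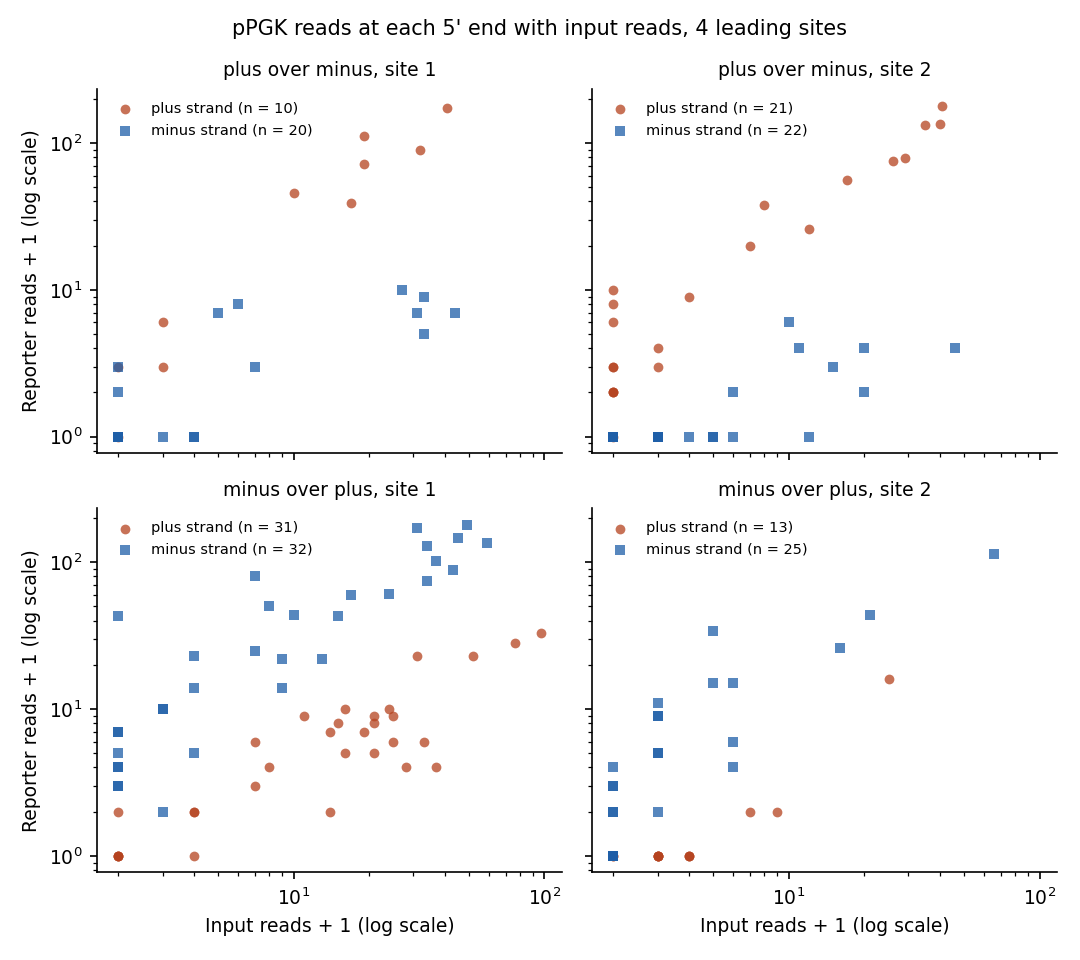
Reporter reads against input reads (each plus 1, log axes) at every 5' end with input reads in pPGK, for the first and second site of each direction; each point is 1 position, plus strand in red and minus strand in blue. At ends with many input reads the strands lie apart at the first site of each direction, with 172 reporter reads from 40 input reads on one strand and 6 from 43 on the other.

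The sites with most input reads were chosen by depth and not by size. The site chr17:39983001-39983500 held 15730 plus reporter reads from 6074 and 745 minus reads from 3172. Its strand difference was 3.46 (SE 0.34) in pPGK and 2.24 (SE 0.34) in PMA_I, and the bins on either side were at 1.70 and 5.23. The site chr7:133126001-133126500, with 9124 plus reads from 3000 and 848 minus reads from 1106, was at 1.99 (SE 0.15) and 2.18 (SE 0.16). The site chrX:6952501-6953000 was at 1.53 (SE 0.14) and 0.98 (SE 0.10). Of those with minus over plus, chr9:110232001-110232500 held 8071 minus reads from 1793 and 1485 plus reads from 2025. It was at -2.61 (SE 0.11) in pPGK and -1.72 (SE 0.09) in PMA_I. The site chr19:7225001-7225500 was at -2.40 (SE 0.15) and -1.56 (SE 0.16), and chr9:114887501-114888000 at -1.69 (SE 0.16) and -0.89 (SE 0.12).

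The largest fitted differences, 7.81 and -7.14, came from the thinnest counts and depend on the pseudocount. The site chr16:4560001-4560500 had 219 plus reads from 54 and 0 minus reads from 55, the latter at 2 input positions, and in PMA_I its minus strand gave 21 reads. The site chr3:34440001-34440500 had 301 minus reads from 77 and 1 plus read from 72. The threshold of 1.5 separates like sites. Just inside it were chr14:122131001-122131500 and chr2:90781001-90781500, both at 1.5 (SE 0.52 and 0.47). Just outside it were chr15:84276501-84277000 and chr2:124724501-124725000, which round to the same value (SE 0.54 and 0.25). On the other side, chr9:92125001-92125500 and chr2:27395501-27396000 lay just inside -1.5. The site chr5:137951001-137951500 and chr15:79132501-79133000 lay just outside.

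Because the values that chose the sites cannot also test them, the rule was applied again to 5' ends at odd coordinates, with a minimum of 25 input reads, and the strand difference was read at even coordinates. Odd and even ends belong to the same libraries and input, so even ends are no replicate and no independent test. Of plus ends with at least 10 reporter reads and no input in pPGK, 14.4% had their nearest input end 1 bp lower. Reads of 1 fragment may thus fall on both sides. Ends with the nearest input end 1 bp higher are not in this share. Of 881 bins chosen at odd ends and measured at even ends, 856 (97.2%) had the same sign in pPGK. Over all 8720 bins with both values the share was 78.5%. These take in bins with small differences at odd ends, so this is no matched share. The median difference at even ends was 1.68 (quartiles 1.15 and 2.10), beside 1.93 at the odd ends that chose the bins. A difference of at least 1 with the same sign was found at even ends in 706 of the 881, against 34.3% of all bins. In PMA_I 835 of 881 (94.8%) had the same sign at even ends. Without reporter reads at ends lacking input, the sign was the same in pPGK in 915 of 938 bins.

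Reads below the mapping quality minimum, which took no part in the choice, gave a further readout that was added after the data were seen. In 124 sites with at least 50 such input reads on each strand, 123 (99.2%) had the sign of the used reads in pPGK, with a median signed difference of 1.96. Over all bins with such reads the share was 81.8% of 1140. Those bins include small strand differences, so this is no matched share. The reads come from the same library and input as the used reads, so they are no replicate and no independent test. These reads can belong to more than 1 place in the genome.

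The strand difference was larger in pPGK than in PMA_I at the same even ends. Its median was 1.68 in pPGK and 1.12 in PMA_I (quartiles 0.67 and 1.56), and 732 of 881 bins (83.1%) had the larger value in pPGK. Both strands moved. Median A of the higher strand was 0.56 in pPGK and 0.24 in PMA_I, and that of the lower strand was -1.09 and -0.86. The spread of the strand difference over all 14611 bins was also wider in pPGK, with an SD of 1.07 against 0.89. Other values differed between these files as well: 65.3% of pPGK reporter reads and 99.5% of those of PMA_I had a mapping quality of at least 30, and the minus ends 24 to 28 bp from an input end were 32.2% of those without input in pPGK and 0.538% in PMA_I. Without the reads at ends lacking input, the medians at even ends were 1.67 and 1.06, and 823 of 938 bins had the larger value in pPGK. The choice at odd ends asked for a size in pPGK and only for a sign in PMA_I, which favours bins with the larger value in pPGK. The part of mapping quality was not tested, and a single library stood on each side.

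In pPGK the strand difference reached beyond the site into the next bin. No fragment midpoint lies in more than 1 bin, so a neighbour's reads are not those that chose the site, although fragments of adjacent bins can overlap in sequence. Of 413 neighbouring bins that were not sites, 314 (76.0%) had the sign of the site in pPGK, with a median signed difference of 0.75. For pairs of adjacent bins outside the list the share was 64.6%. Such pairs include bins with small differences, so their shares, here and at larger distances, are not matched to the sites. At 1000 bp 57 of 107 bins (53.3%) had the sign of the site, with a median of 0.06, and 185 of 381 pairs of other bins (48.6%) had the same sign. At 1500 bp the share was 29 of 49 (59.2%, median 0.37), against 54.1% of other pairs, and at 2000 bp 14 of 27 (51.9%, median 0.29), against 54.5%. In windows of 100 bp the median signed difference was 1.99 at 100 bp below the centre of a site, 1.59 at 300 bp, 0.98 at 400 bp, 0.52 at 500 bp and 0.10 at 700 bp. Above the centre it was 1.38 at 300 bp, 1.30 at 400 bp, 1.05 at 500 bp and 0.30 at 600 bp. Farther above it did not go on falling, at 0.43 at 700 bp, 0.45 at 800 bp, 0.54 at 900 bp, 0.21 at 1000 bp, 0.78 at 1100 bp and 0.63 at 1200 bp. These windows held 63 sites at 700 bp and 22 at 1200 bp.

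**Figure D4:**
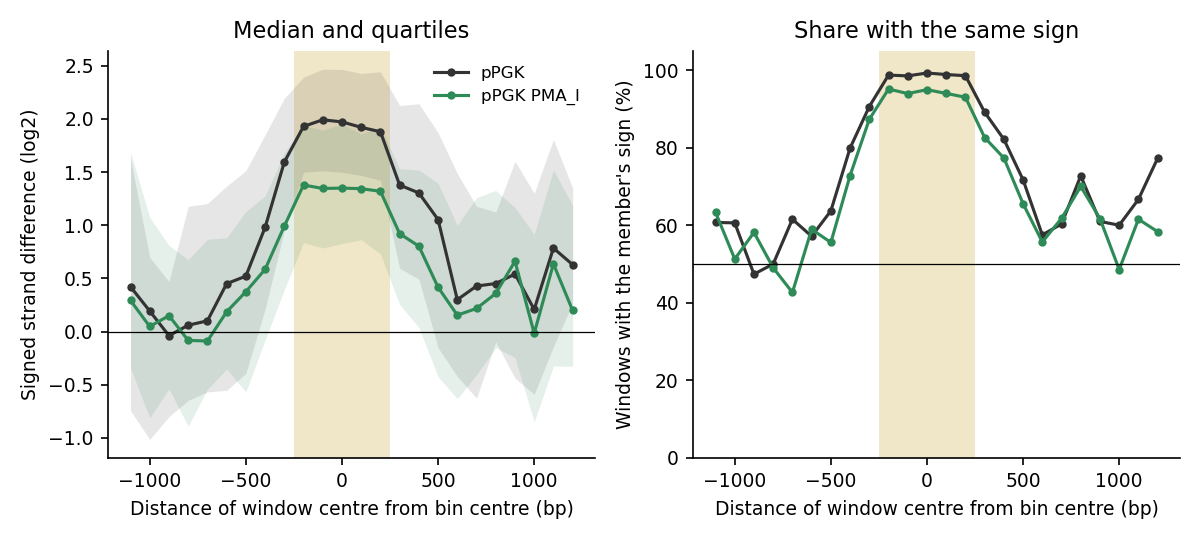
Strand difference signed as the site (left, log2: median line and quartile band) and share of windows with the sign of the site (right, percent), in 100 bp windows by distance of the window centre from the centre of the 500 bp bin, for pPGK (dark) and PMA_I (green); the shaded bin holds the reads that chose the sites, and windows measured at fewer than 20 sites are not drawn. In pPGK the median went from 1.59 at 300 bp below the centre to 0.52 at 500 bp.

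Of 77 pairs of adjacent sites, 75 had the same sign. Both bins of such a pair were chosen for a large difference, so the 64.6% of adjacent bins outside the list is no matched share. Merging them left 1181 stretches, of which 1109 were single bins, 69 were 2 bins long and 3 were 3 bins long. One of the longest was at chr12:114573501-114575000, where the bins were at 2.52 (SE 0.42), 2.12 (SE 0.40) and 3.38 (SE 0.42) in pPGK and at 1.06, 1.05 and 0.61 in PMA_I. The 2 pairs of opposite sign were chr14:27353501-27354500 at -2.12 (SE 0.24) and then 1.85 (SE 0.63), and chr4:71861501-71862500 at 1.56 (SE 0.82) and then -1.60 (SE 0.51). In PMA_I these were at -1.33 and 1.39, and at 0.92 and -1.44. The sites lay on every autosome and on X, with 1 on an unplaced X sequence, from 6.25% of the measured bins on chromosome 16 to 10.6% on chromosome X.

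In the SCP1 and pR-Ea files the strands of these sites were nearly alike. In SCP1 684 of 1188 sites (57.6%) had the sign of pPGK, against 55.0% of all bins, and the median signed difference was 0.03 (quartiles -0.08 and 0.19). In pR-Ea the numbers were 594 of 1090 (54.5%) against 51.8%, with a median of 0.01 (quartiles -0.05 and 0.09). The median standard error over positions was 0.40 in SCP1 and 0.24 in pR-Ea, wider than these quartiles. It is therefore no measure of the error of the strand difference in these files. A difference of at least 1 with the sign of pPGK was found in 42 sites in SCP1 (3.54%, against 2.22% of all bins) and in 13 sites in pR-Ea (1.19%, against 0.391%). The near-equal strands of SCP1 and pR-Ea bins hold for the whole files, with a Spearman rho of 0.88 and 0.94 between strands. The strand of a read may not mean the same there as in the pPGK files. Whether the promoter or the way the libraries were read lies behind the near-equal strands cannot be told apart here.

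**Figure D5:**
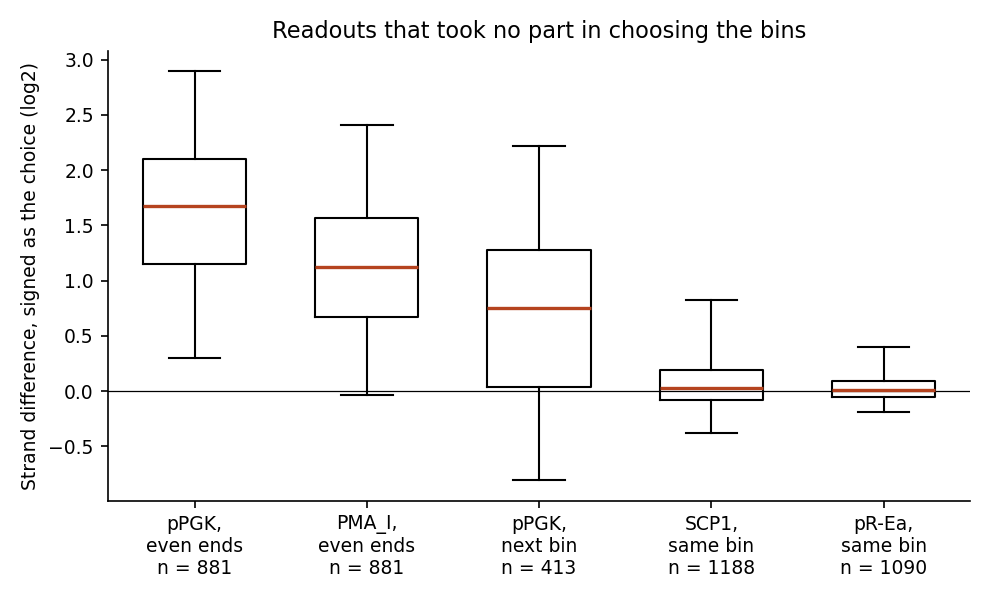
Strand difference signed as the choice of the bin (log2; y axis) for readouts that took no part in the choice: even 5' ends of pPGK and PMA_I in 881 bins chosen at odd ends, the next bin in pPGK (n = 413), and the same bin in SCP1 (n = 1188) and pR-Ea (n = 1090). Boxes show quartiles, red lines medians (1.68, 1.12, 0.75, 0.03 and 0.01) and whiskers the percentiles 5 and 95.

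Of 1078 sites measured with both other promoters, 358 had the sign of pPGK in each. The same count was not taken over all bins, so it is no result about the sites. Taken singly, 55.0% of all bins had the sign of pPGK in SCP1 and 51.8% in pR-Ea. The largest differences with the sign of pPGK in both, by the naming rule, were at 6 sites. The site at chr19:7276501-7277000 was at 2.75 (SE 0.76) in SCP1, where the plus strand gave 162 reads from 113 and the minus strand 68 from 324, and at 1.46 (SE 0.71) in pR-Ea. The leading site, chr9:96470501-96471000, was at 1.06 (SE 0.57) in SCP1 and 2.40 (SE 0.44) in pR-Ea. The site chr18:4177501-4178000, at 2.33 (SE 0.24) in pPGK, was at 1.71 (SE 0.43) and 0.95 (SE 0.47). In the other direction, chr1:193280501-193281000 was at -1.67 (SE 0.25) in pPGK, -1.17 (SE 0.52) in SCP1 and -1.09 (SE 0.38) in pR-Ea. The site chr15:83657001-83657500 was at -1.91 (SE 0.35), -1.24 (SE 0.68) and -1.09 (SE 0.41). The site chr18:21922001-21922500 was at -1.16 (SE 1.15) in SCP1 and -1.68 (SE 0.57) in pR-Ea, beside -4.69 (SE 0.54) in pPGK from 5 plus reads. These 6 were picked as the largest, so their values are a description. The deep site at chr9:110232001-110232500, at -2.61 in pPGK, was at -0.01 (SE 0.14) in SCP1 and 0.04 (SE 0.08) in pR-Ea. Its SCP1 strands were near equal in reporter and in input, with 5298 plus reads from 4522 and 5326 minus reads from 4536.

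Pooled over strands, the sites were compared with 3723 strand-balanced bins, which had a strand difference under 0.5 in size and the same window on pooled pPGK activity. Pooled activity with pR-Ea was higher at the sites, with a median of 0.22 (quartiles -0.16 and 0.50, n = 1090) against 0.01 (quartiles -0.32 and 0.30, n = 3151), while median pooled pPGK activity was -0.02 and 0.08. With SCP1 the medians were alike, at -0.04 and -0.03. Few sites stood out in the pooled count. With SCP1 21 sites were at 1 or more (1.77%, against 3.77% of all bins and 1.22% of balanced bins) and 66 at -1 or less (5.56%, against 10.8% and 3.95%). With pR-Ea these were 8 (0.734%, against 0.599% of all bins and 0.540% of balanced bins) and 25 (2.29%, against 6.3% and 2.73%). The pooled activity of the sites was lower in PMA_I than in pPGK by a median of 0.13 on the log2 scale, whereas that of balanced bins was higher by 0.06. It was lower by 1 or more in 16 of the 1256 sites, against 62 of all 14611 bins (0.424%). It was higher by 1 or more in 0 sites, against 18 of all bins (0.123%). Both pPGK files entered the choice of the sites, so these changes are a description. The sites had slightly more input than balanced bins, with medians of 357 and 290 reads. The deepest site, chr17:39983001-39983500, had a pooled pPGK activity of -0.48, near the edge of the window, with an A of 0.06 on the plus and -3.40 on the minus strand.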

How the data were processed

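Reporter RNA and plasmid input were counted for 4 reporter libraries in P5424 cells. The build was mm9 and the tools included bedtools 2.28.0, SAMtools and Bowtie2, per the submitters' processing notes, which give no settings here. The deposited files hold whole-number read counts per 5' end of 315 bp fragments, with a mapping quality score that the authors deposited in the fifth column. Scores began at 0 in both pPGK files and at 30 in the rest.

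Fragments were placed by midpoint in 500 bp bins. A score of at least 30 was required, and 5' ends listed on both strands, which carry equal counts on both lines, were left out. Bins needed 50 input reads on each strand in both pPGK files, or in the SCP1 or pR-Ea file for its own values. Pooled activity was taken from the summed reads of both strands; the sum of the strands' own activities is among the alternatives. The standard error was linearised over positions. Intervals for counts are not given, since PCR copies are not independent molecules. Scripts used python 3.11.15, numpy 2.4.6, pandas 2.3.3 and scipy 1.17.1. The rule was also run on simulated Poisson counts. These hold no spread between positions and no PCR copies, so the run checks the calculation and not the error of the real counts.

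Leading sites had at least 10 input positions on each strand and a difference of at least 1 in both pPGK files without the leading position; 599 sites qualified. The 6 largest of each direction are named, with the 3 deepest, the 2 on each side of the threshold, and the 3 largest with SCP1 and pR-Ea. Sites at the thinnest counts, opposite pairs, the stretch of 3 bins and sites opposite in SCP1 were named after their values were seen. The sites, lists and rules were chosen with earlier results of these data known. No gene names or sequences are given, because the gene and promoter tables used here belong to another build.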

Additional observations from a re-analysis of the deposited data

Results flagged for a closer look

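In 6 sites the strand difference was at least 1 in size and of opposite sign in SCP1, and this difference between promoters was not tested. The site chr1:181002501-181003000 was at 1.59 (SE 0.30) in pPGK, 0.61 (SE 0.31) in PMA_I and -1.12 (SE 0.34) in SCP1. The site chr7:28272001-28272500 was at -1.90 (SE 0.43), -2.02 (SE 0.26) and 1.5 (SE 0.74). The other 4 had standard errors of 0.69 to 1.83 in SCP1. The pair named were near 0 in pR-Ea, at -0.10 (SE 0.15) and 0.11 (SE 0.29). Over all bins, 111 of 13809 were opposite by at least 1 in SCP1, and in pR-Ea 0 sites were.

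Reads of low mapping quality, which no choice of sites used, had the same sign in pPGK in 99.2% of the 124 sites measured, as given above. They come from the same library and are no replicate.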

How the results depend on the processing

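The 15 alternatives gave sites of both directions, and none of the 12 compared site by site turned a site to the other direction. Many sites left the list under some of them. The sites kept ran from 15 of 1256 by distinct positions to 1254 with the totals of both strands together. They were 415 in bins by 5' end and 428 with the sum of the strands' activities. The counts (604 plus over minus and 652 minus over plus) were 367 and 383 with 100 input reads on each strand, 244 and 283 with the sum of the strands' activities in place of pooled reads, 235 and 259 at a threshold of 2, 383 and 389 in bins by 5' end, and 16 and 29 by distinct positions. At even ends the share with the same sign was 98.9% with 100 input reads and 89.5% by distinct positions. In next bins it was 87.0% with 250 bp bins, 69.5% with 1000 bp bins, 82.1% with 100 input reads, 80.9% with the summed activities, 80.1% at a threshold of 2, 82.2% without a mapping quality minimum and 61.1% by distinct positions. In SCP1 it was 60.6% with the summed activities, 61.8% in bins by 5' end and 48.7% by distinct positions, and in pR-Ea 44.0% by distinct positions, the last 2 from 39 and 25 sites and on the other side of 50%. The cause of these changes was not tested. The quartiles of the SCP1 and pR-Ea differences lie within their median standard errors of 0.40 and 0.24, beside 0.37 in pPGK. Over all bins the quartiles were -0.12 and 0.13 in SCP1, with a median standard error of 0.41. In pR-Ea they were -0.08 and 0.07, with 0.27. The difference thus spread less than its standard error, which takes the strands as independent. In these files that standard error does not show how small a difference could be resolved at single sites.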
